A study of Mus musculus with 18 samples.

Results

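Cells obtain cholesterol by making it and by taking it up, and 8 genes of these routes were followed here through ischemic mouse kidneys. They were taken by name from the gene annotation: *Hmgcs1*, *Idi1*, *Fdft1*, *Sqle*, *Lss* and *Cyp51* encode enzymes of cholesterol synthesis, and *Insig1* and *Srebf2* encode proteins that set how much of these enzymes is made. They are 8 of the 45706 genes in the count tables. All 8 passed the filter on low counts in each comparison.

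Whole kidneys of 18 mice were sequenced, all removed 12 h after 22.5 min of bilateral renal ischemia. All animals were adult male littermates on a C57BL/6 background and had been given doxycycline. In the KO mice, doxycycline switches on the TetOCre recombinase through Pax8rtTA, which is active in tubule cells, and the recombinase removes floxed *Cxcl12* or floxed *Myc*. Control mice carried the same floxed gene and Pax8rtTA but no TetOCre. The *Cxcl12* cohort held 5 KO and 3 control kidneys and the *Myc* cohort 5 of each. All were injured and no uninjured kidney was included, so each comparison asks what the loss of the gene in tubules did on top of injury. Other kidney cells kept the deleted gene. As tissue was sequenced whole, fewer cells of a type and less RNA per cell cannot be told apart.

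Cholesterol is built from acetyl units by way of mevalonate, isoprenoids, squalene and lanosterol. When membranes of the endoplasmic reticulum run low in sterol, SCAP carries the SREBP2 protein, the product of *Srebf2*, to the Golgi, where it is cut. The freed part enters the nucleus and raises transcription of genes for cholesterol synthesis and uptake. INSIG1 holds SCAP back when sterol is plentiful, and its own gene is a target of the same factor. Kidney tubule cells have large membranes and reabsorb lipid-bearing proteins, and both routes are known in them.

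SREBP2 is known to act through sterol regulatory elements near the start of its target genes, and the promoters of the members are shown for these letters. RefSeq promoters, which run from 250 bases before to 50 bases after a gene's start on GRCm38.p6, were given for 6 of the 8 members, *Sqle* and *Fdft1* being the others. Both strands were searched. The letters TCACCCCAC lay 137 bases before the RefSeq start of *Hmgcs1*, and 0.55% of the 32851 RefSeq promoters held them. The shorter TCACCCCA is part of that match and was added after the promoters had been seen. It was found in 1.56% of promoters, among them that of *Srebf2*, 162 bases before its RefSeq start. The looser TCACNCCAC was found in 1.24% of promoters, and among the members at the same place in *Hmgcs1*. The E-box CACGTG is a site type bound by SREBP and by MYC with its partner MAX. It was found in 7.15% of promoters and in 1 member, *Insig1*, 101 bases before its RefSeq start. In the stretches printed here the matched letters are in capitals.
Hmgcs1 (chr13:119690189-119690247, plus strand): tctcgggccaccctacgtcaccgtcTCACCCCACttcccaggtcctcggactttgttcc
Srebf2 (chr15:82147082-82147139, plus strand): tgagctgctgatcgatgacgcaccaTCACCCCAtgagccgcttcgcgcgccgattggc
Insig1 (chr5:28071286-28071341, plus strand): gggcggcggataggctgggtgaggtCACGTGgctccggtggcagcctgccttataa
In the windows of *Idi1*, *Lss* and *Cyp51* these letters were not found. The letters of the CCAAT box, which 37.4% of all promoters held, were found in the windows of all 6 members with a promoter. The GC box letters GGGCGG were also found in all 6, against 35.7% of all promoters. None of these matches says that a factor was bound in these kidneys.

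The libraries held between 12918220 and 29749500 reads on genes. The share of unmapped reads was under 5% in 6 libraries, which came from 2 *Cxcl12* KO, 2 *Myc* KO and 2 *Myc* control kidneys but from no *Cxcl12* control. These 6 were also the deepest, with at least 32532582 reads in the file, against at most 26415146 in the other 12. This class and depth therefore cannot be told apart. The methods mention an adjustment for batch effects with ComBat on log2 values, but neither they nor the labels say which kidneys formed a batch, and the raw counts used here carry no such adjustment. For the members whose fold change within a cohort moved most without these kidneys, both values are given. *Cxcl12* CPM ran from 26.3 to 40.9 in *Cxcl12* KO and from 44.9 to 60.5 in its control kidneys. *Myc* CPM ran from 26.6 to 37.0 in *Myc* KO and from 79.7 to 117 in its control kidneys. CPM here stands for counts scaled to reads on genes by the TMM method over all 18 kidneys, per 1000000 reads. Within each cohort, edgeR's quasi-likelihood test set KO against control over all genes with Benjamini-Hochberg adjustment, and a gene was called at an adjusted p under 0.05. The labels do not say more about the replicates than their numbers, so p-values measure the spread between these kidneys.

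None of the 8 members was called in either cohort. In the *Cxcl12* cohort, 0% of the 15154 genes tested were called by edgeR, although 1976 of them had an unadjusted p under 0.05. DESeq2 called 353 genes in this cohort and limma-voom called 0. In the *Myc* cohort, 246 of 14936 genes were called, or 1.65%, so most genes there were not called either. The KO effect differed between the cohorts for 11 of 15903 genes, or 0.0692%, and for none of the members. Of the 623 member values over the 78 fits that were run, none was called, and the smallest adjusted p was 0.085. The 8 members had a median log2 fold change of -0.12 with *Cxcl12* loss and of 0.09 with *Myc* loss, where the medians over all genes tested were 0.0008 and -0.0008.

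**Figure D1:**
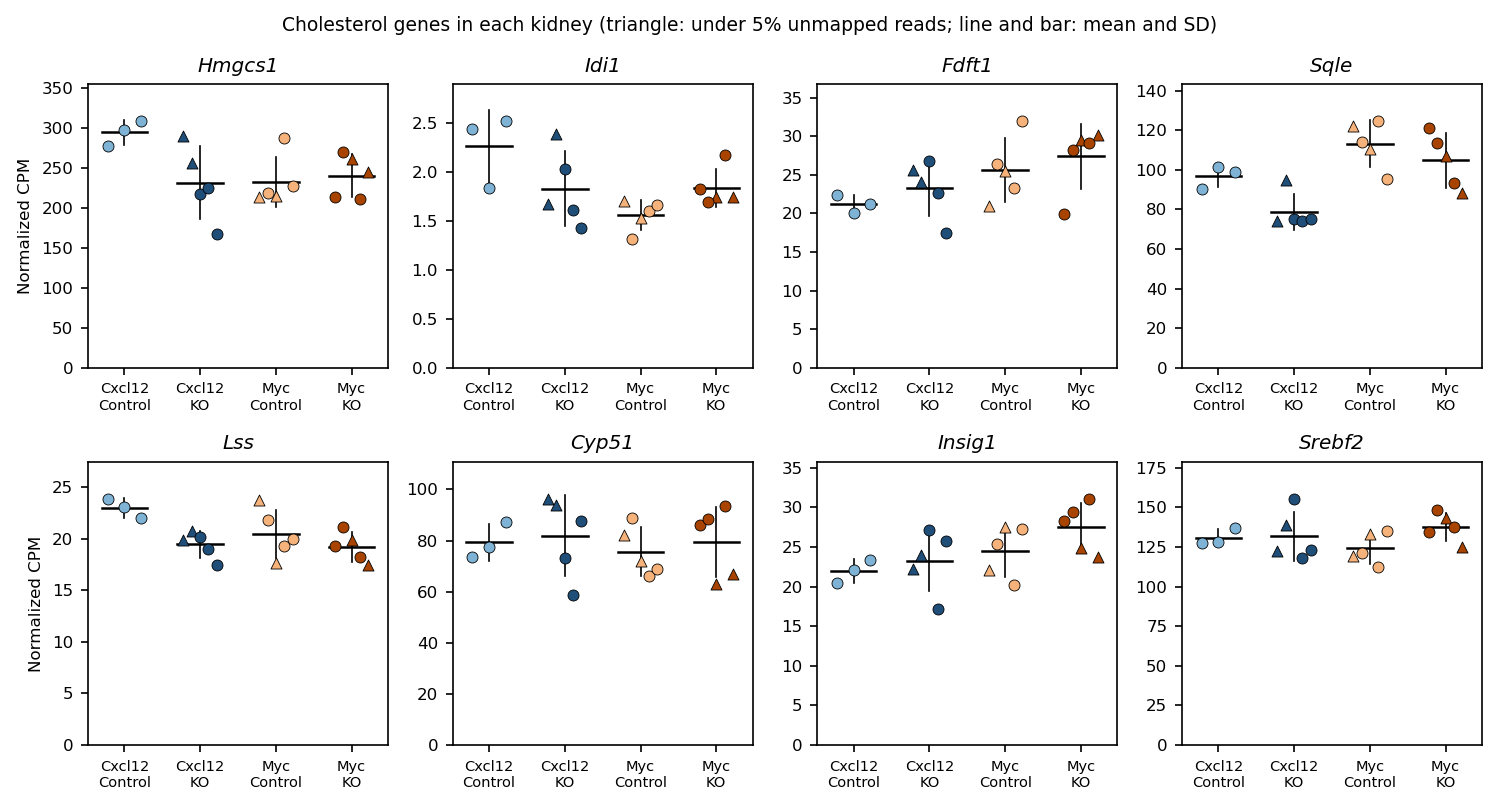
Normalized CPM (y axes, from 0) of the 8 members in each of the 18 kidneys by group. Points are kidneys, triangles those with under 5% unmapped reads, and lines and bars are group means and SD. The 5 *Cxcl12* KO kidneys lie below all 3 controls for *Lss* (17.5 to 20.8 against 22.0 to 23.9), and groups of a cohort overlap for the other 7 genes.

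*Hmgcs1* encodes the cytosolic HMG-CoA synthase, which condenses acetyl units into the precursor of mevalonate. The gene (ENSMUSG00000093930) lies on the plus strand of GRCm38 at chr13:119690379-119708260. The 3 *Cxcl12* control kidneys had 278, 298 and 309 CPM. *Cxcl12* KO kidneys had 290, 256, 218, 225 and 168 CPM. Thus 1 KO kidney lay inside the control range and 4 lay below every control kidney. This gave a log2 fold change of -0.35 (standard error 0.15, 95% interval -0.68 to -0.02, edgeR adjusted p = 0.36), that is 231 ± 45.6 CPM (SD, n = 5) against 295 ± 15.7 CPM (SD, n = 3). The pair of highest KO kidneys were those with under 5% unmapped reads. Among kidneys with at least 5% unmapped reads, 3 KO kidneys at 168 to 225 CPM stood against the 3 controls, which put the log2 fold change at -0.55 with a standard error of 0.13 (edgeR adjusted p = 0.12). With the unmapped class as a covariate it was -0.54 (edgeR adjusted p = 0.089). As no *Cxcl12* control had under 5% unmapped reads, this value comes from the same kidneys and is no separate check.

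With *Myc* loss no such gap was seen. *Myc* KO kidneys had 214, 270, 261, 211 and 245 CPM of *Hmgcs1*, and *Myc* control kidneys had 213, 219, 215, 287 and 228 CPM. The groups overlapped, with a log2 fold change of 0.05 (95% interval -0.18 to 0.28, edgeR adjusted p = 0.81). The interval left room for a fold between 0.884 and 1.22. The value was -0.068 (edgeR adjusted p = 0.80) among *Myc* kidneys with at least 5% and 0.25 (edgeR adjusted p = 0.58) among those with under 5% unmapped reads. The difference of the KO effects, *Myc* minus *Cxcl12*, was 0.40 on the log2 scale (95% interval 0.01 to 0.79, edgeR adjusted p = 0.43) and did not pass the test. In the order of group means, the *Cxcl12* controls were highest, and every one of them lay above every *Myc* KO kidney. The other neighbouring groups in the order, *Myc* KO, *Myc* control and *Cxcl12* KO, overlapped.

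*Idi1* encodes isopentenyl-diphosphate isomerase, which interconverts the isoprenoid units from which squalene is made. The gene (ENSMUSG00000058258) lies on the plus strand at chr13:8885501-8892451 and was the weakest of the 8, with 20 to 63 counts per kidney. *Cxcl12* KO kidneys had 1.67, 2.39, 2.02, 1.61 and 1.43 CPM, and their controls had 2.43, 1.83 and 2.51 CPM. *Myc* KO kidneys had 1.82, 1.69, 1.74, 2.17 and 1.74 CPM, and their controls had 1.70, 1.31, 1.52, 1.60 and 1.66 CPM. Both pairs of groups overlapped. The log2 fold change was -0.30 (95% interval -0.83 to 0.23, edgeR adjusted p = 0.62) with *Cxcl12* loss and 0.23 (95% interval -0.14 to 0.60, edgeR adjusted p = 0.45) with *Myc* loss, the widest intervals among the members. Among kidneys with at least 5% unmapped reads these values were -0.44 (edgeR adjusted p = 0.49) and 0.32 (edgeR adjusted p = 0.45). The level of *Idi1* is uncertain for a further reason: 25.3% of the 50-base stretches in its exons also occur in other genes, most of them in the processed pseudogene *Gm13502*, and reads from such stretches cannot be placed. The column for one strand held 70.5% of its counts and the other 29.5%.

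*Fdft1* encodes squalene synthase, which joins farnesyl units into squalene, the first step that leads to sterols alone. It (ENSMUSG00000021273) lies on the minus strand at chr14:63145150-63179578. In *Cxcl12* KO kidneys its level was 25.6, 24.1, 26.8, 22.6 and 17.5 CPM, and in their controls it was 22.3, 20.1 and 21.3 CPM. In 4 KO kidneys it lay above every control and in the last one below every control, at a log2 fold change of 0.13 (95% interval -0.16 to 0.43, edgeR adjusted p = 0.70). The *Myc* KO kidneys had 19.9, 28.2, 29.5, 29.1 and 30.2 CPM and the *Myc* controls had 21.01, 26.4, 25.6, 23.3 and 31.9 CPM. Each of these groups held kidneys on both sides of the other's mean, and the log2 fold change was 0.10 (95% interval -0.19 to 0.39, edgeR adjusted p = 0.68). It was -0.066 (edgeR adjusted p = 0.84) among *Myc* kidneys with at least 5% and 0.37 (edgeR adjusted p = 0.58) among those with under 5% unmapped reads. *Fdft1* shares 774 exon bases, or 18.3% of its exons, with *Ctsb* on the opposite strand, a gene with 410884 counts over all kidneys. Counts that ignore the strand leave out reads in such an overlap, and those that fall near it cannot be assigned with certainty.

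*Sqle* encodes squalene epoxidase, which adds oxygen to squalene and is a known control point of the pathway. It (ENSMUSG00000022351) lies on the plus strand at chr15:59315077-59331192. The *Cxcl12* KO kidneys had 73.9, 94.7, 75.1, 74.0 and 74.9 CPM, and the controls had 90.4, 101 and 98.9 CPM. Thus 4 KO kidneys stood between 73.9 and 75.1 CPM, below every control, and 1 lay inside the control range. The log2 fold change was -0.31 (standard error 0.099, 95% interval -0.52 to -0.09, edgeR adjusted p = 0.24), the smallest adjusted p among the members in this cohort. It was -0.39 (standard error 0.081, edgeR adjusted p = 0.091) among kidneys with at least 5% unmapped reads. The *Myc* KO kidneys had 121, 114, 107, 93.5 and 88.2 CPM and their controls had 122, 114, 110, 124 and 95.1 CPM. These groups overlapped, at a log2 fold change of -0.11 (95% interval -0.33 to 0.11, edgeR adjusted p = 0.54). For *Sqle* in *Myc* kidneys with at least 5% unmapped reads it was -0.016 (edgeR adjusted p = 0.96), and in those with under 5% it was -0.25 (edgeR adjusted p = 0.59). The difference of the KO effects was 0.19 on the log2 scale (95% interval -0.13 to 0.50, edgeR adjusted p = 0.70), and 0.37 (edgeR adjusted p = 0.29) among kidneys with at least 5% unmapped reads.

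*Lss* encodes lanosterol synthase, which closes the epoxide of squalene into the sterol rings. It (ENSMUSG00000033105) lies on the plus strand at chr10:76531588-76557138. Levels in *Cxcl12* KO kidneys were 19.9, 20.8, 20.2, 19.0 and 17.5 CPM, against 23.9, 23.1 and 22.0 CPM in controls. All 5 KO kidneys lay below all 3 controls, which was so for 1 of the 8 members and for 4.72% of the genes tested. No member had all KO kidneys above all controls, against 4.96% of genes. The log2 fold change was -0.24 (standard error 0.093, 95% interval -0.45 to -0.04, edgeR adjusted p = 0.32) and did not pass the test. *Lss* in the *Myc* cohort stood at 19.3, 21.1, 19.9, 18.3 and 17.4 CPM in KO and at 23.7, 21.8, 17.6, 19.3 and 19.99 CPM in control kidneys. These values overlapped, with a log2 fold change of -0.09 (95% interval -0.30 to 0.12, edgeR adjusted p = 0.60). No member of the *Myc* cohort had all KO kidneys below all controls, against 3.92% of genes, and none had them all above, against 2.05%.

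*Cyp51* encodes lanosterol demethylase, the first enzyme to act on the sterol rings. It (ENSMUSG00000001467) lies on the minus strand at chr5:4081145-4104746. The *Cxcl12* KO kidneys had 96.4, 93.8, 73.4, 58.7 and 87.6 CPM and the controls had 73.4, 77.3 and 87.2 CPM, so that KO kidneys lay on both sides of the controls. For *Cxcl12* the log2 fold change was 0.05 (95% interval -0.29 to 0.38, edgeR adjusted p = 0.92), and -0.13 (edgeR adjusted p = 0.74) among kidneys with at least 5% unmapped reads. Kidneys of the *Myc* cohort had 86.0, 88.4, 63.0, 93.6 and 66.8 CPM in KO and 82.1, 88.8, 72.0, 66.0 and 69.0 CPM in control kidneys. The pair of low *Myc* KO kidneys were those with under 5% unmapped reads. Over all *Myc* kidneys the log2 fold change was 0.07 (95% interval -0.19 to 0.34, edgeR adjusted p = 0.76). It was 0.27 (edgeR adjusted p = 0.23) among those with at least 5% and -0.24 (edgeR adjusted p = 0.59) among those with under 5% unmapped reads.

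*Insig1*, the gene of the sterol-dependent brake, lies (ENSMUSG00000045294) on the plus strand at chr5:28071363-28078662. It had 22.2, 24.0, 27.2, 17.2 and 25.8 CPM in *Cxcl12* KO kidneys and 20.4, 22.1 and 23.4 CPM in their controls. The controls lay inside the KO range, and the log2 fold change was 0.08 (95% interval -0.23 to 0.38, edgeR adjusted p = 0.85). *Myc* KO kidneys had 28.3, 29.5, 24.9, 31.1 and 23.7 CPM, and *Myc* controls had 22.1, 25.4, 27.5, 20.2 and 27.2 CPM. In 3 of the 5 *Myc* KO kidneys *Insig1* lay above every control, at a log2 fold change of 0.17 (95% interval -0.07 to 0.40, edgeR adjusted p = 0.39). Those 3 were the KO kidneys with at least 5% unmapped reads, and such kidneys alone put the log2 fold change at 0.30 with a standard error of 0.12 (edgeR adjusted p = 0.20).

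*Srebf2* (ENSMUSG00000022463) lies on the plus strand at chr15:82147181-82205379. It encodes the precursor of SREBP2 and ran from 112 to 155 CPM over the kidneys. *Cxcl12* KO kidneys had 123, 139, 155, 118 and 123 CPM and the controls 127, 128 and 137 CPM. The log2 fold change there was 0.01 (95% interval -0.22 to 0.23, edgeR adjusted p = 0.99), so that a fold outside 0.858 to 1.17 lay beyond the interval. The *Myc* KO kidneys had 135, 148, 143, 138 and 125 CPM of *Srebf2* and control kidneys had 119, 121, 133, 112 and 135 CPM. The 2 groups overlapped at 125 to 135 CPM. The log2 fold change was 0.15 (standard error 0.076, 95% interval -0.01 to 0.32, edgeR adjusted p = 0.26), the smallest adjusted p among the members in the *Myc* cohort. The mRNA level of *Srebf2* does not show how much of its protein was cut and active.

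**Figure D2:**
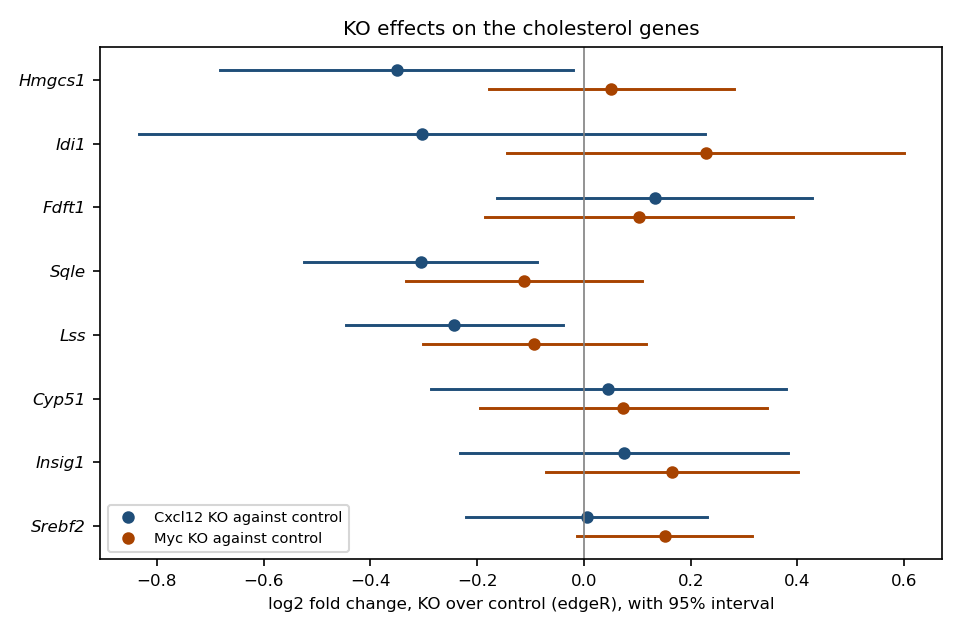
Log2 fold changes of KO over control kidneys from edgeR (x axis) with 95% intervals for the 8 members in the *Cxcl12* cohort (blue) and the *Myc* cohort (orange). In the *Cxcl12* cohort the intervals of *Hmgcs1*, *Sqle* and *Lss* lie below 0, and none of the 3 was called after adjustment.

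The 3 members whose *Cxcl12* intervals lay below 0 were all enzymes, *Hmgcs1*, *Sqle* and *Lss*, with unadjusted p of 0.040, 0.010 and 0.024 from edgeR. Of all genes tested in that cohort, 13.04% had an unadjusted p under 0.05. Among kidneys with at least 5% unmapped reads, these 3 members had every KO kidney below every control, as did 9.17% of all genes, and no member had every KO kidney above, against 9.9% of genes. Among such kidneys of the *Myc* cohort, *Idi1* and *Insig1* had every KO kidney above every control, against 14.2% of genes, and no member had them all below, against 15.6%. Summed over the 6 member enzymes, the *Cxcl12* KO kidneys had 437 ± 60.7 CPM (SD, n = 5), whereas the controls had 517 ± 25.4 CPM (SD, n = 3). The KO kidneys ranged from 367 to 508 CPM and the controls from 490 to 540 CPM, and the ranges overlapped. For *Myc*, the sum was 473 ± 31.2 CPM with KO and 469 ± 32.0 CPM without it (SD, n = 5 each). *Hmgcs1* was the largest part of the sum in every group.

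Other cell markers moved with the *Cxcl12* comparison. The summed level of 9 proximal tubule markers ran from 4175 to 4607 CPM in *Cxcl12* KO and from 5046 to 5776 CPM in control kidneys, without overlap. Of these 9, 8 had a log2 fold change below 0, and 2 had all KO kidneys below all controls, against 4.72% of all genes tested. Of 9 loop, distal tubule and collecting duct markers, 7 were also below 0 and 2 had all KO kidneys below all controls. The summed level of the latter list overlapped, at 3063 to 5532 CPM in KO and 4122 to 5144 CPM in control kidneys. The summed level of 6 tubule injury genes was 2836 to 3295 CPM in KO and 1772 to 2582 CPM in control kidneys. Singly, 1 of these 6 had all KO kidneys above all controls, against 4.96% of all genes tested. The 7 neutrophil markers summed to 31.9 to 149 CPM in KO and to 20.5 to 28.4 CPM in control kidneys, and all 6 that could be tested had values above 0. None of these marker genes was called, and their part in the values of *Hmgcs1*, *Sqle* and *Lss* was not tested. The adrenal gland, a cholesterol-rich neighbour of the kidney, was hardly present: 5 of its 7 markers had a mean under 0.1 CPM, and the 7 summed to between 2.34 and 7.25 CPM in every kidney. Fat markers summed to 4.05 to 58.2 CPM in *Cxcl12* KO and to 23.5 to 57.7 CPM in control kidneys. The ranges overlapped, but the medians were 7.73 CPM in KO and 34.8 CPM in control kidneys. All 5 fat markers that could be tested had a log2 fold change below 0, and none was called. In the *Myc* cohort the KO and control ranges of these sums overlapped.

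Along the whole pathway the enzymes differed far more from each other than between groups. Per kilobase of exon, *Hmgcs1* had a mean of 53.3 CPM per kb over 18 kidneys, the second of 21 enzymes. *Cyp51* at 17.9 and *Sqle* at 17.8 CPM per kb followed as the third and the fourth. *Fdft1* at 5.85 and *Lss* at 1.88 CPM per kb were lower, and *Idi1* at 0.52 CPM per kb was the lowest but *Fdps*. *Fdps* had 0.37 CPM per kb, and 26.2% of its 50-base stretches also occur in other genes, so its place at the bottom is as uncertain as that of *Idi1*. The exon length used was the union over all annotated transcripts of a gene, 10.8 kb for *Lss*.

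**Figure D3:**
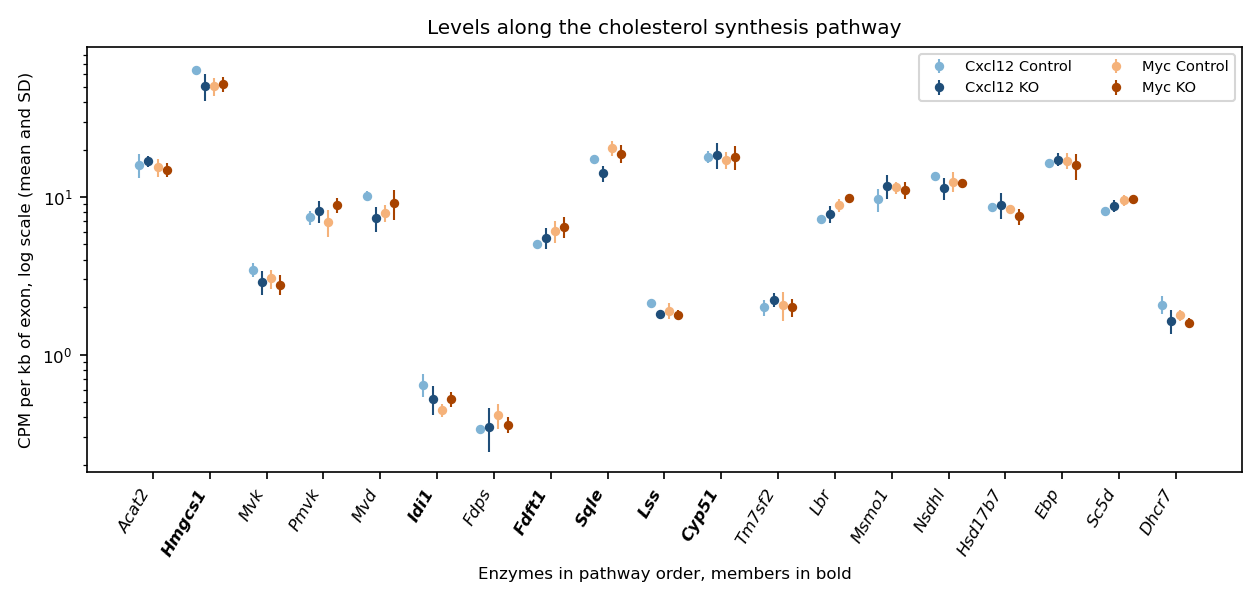
CPM per kilobase of exon (y axis, log scale) for 19 enzymes in the order of the pathway, as group means with SD. Members are in bold. *Hmgcs1* stands above 40 and *Idi1* and *Fdps* below 1 in all 4 groups, and groups lie close together at each enzyme.

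The other 15 synthesis enzymes were read from the same fits. In the *Cxcl12* cohort none of the 21 enzymes was called, 9 had a log2 fold change below 0, and their median was 0.05. *Mvd*, the mevalonate diphosphate decarboxylase, had the lowest value at -0.49 (standard error 0.14, edgeR adjusted p = 0.19), and had -0.36 (edgeR adjusted p = 0.31) among kidneys with at least 5% unmapped reads. Its levels were 11.9, 11.5, 17.6, 14.1 and 13.1 CPM in KO and 20.4, 18.1 and 18.4 CPM in control kidneys, with all KO kidneys below all controls. *Mvd* and *Lss* were the 2 of 21 enzymes of which this was so, against 4.72% of all genes tested, and no enzyme had all KO kidneys above, against 4.96%. *Msmo1*, a sterol methyl oxidase, had the highest value at 0.28 (edgeR adjusted p = 0.46). In the *Myc* cohort none of the 21 was called either, 12 had values below 0, and the median was -0.05. There the highest value was 0.37 for *Pmvk*, the phosphomevalonate kinase (edgeR adjusted p = 0.15).

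Of 9 genes of the SREBP switch, none was called in either cohort, with medians of 0.02 and -0.04 on the log2 scale. *Srebf1*, the gene of the related factor SREBP1, had values of 0.13 and 0.08 in the *Cxcl12* and *Myc* cohorts. *Scap* had -0.11 and -0.08, and *Insig2* had 0.05 and 0.02. The edgeR adjusted p of these 3 genes ranged from 0.54 to 0.92. The outermost values in the *Cxcl12* cohort were -0.34 for *Erlin1* (edgeR adjusted p = 0.28) and 0.18 for *Mbtps2* (edgeR adjusted p = 0.53), and in the *Myc* cohort -0.29 for *Mbtps2* (edgeR adjusted p = 0.21) and 0.15 for *Erlin1* (edgeR adjusted p = 0.41). *Mbtps2* encodes a protease that frees SREBP at the Golgi, and *Erlin1* an endoplasmic reticulum protein.

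On the uptake side, 9 of 10 listed genes could be tested and none was called in either cohort. *Stard4*, a carrier of cholesterol within the cell, had the lowest *Cxcl12* value at -0.47 (edgeR adjusted p = 0.29), and *Npc1*, which exports cholesterol from lysosomes, the highest at 0.33 (edgeR adjusted p = 0.44). With *Myc* loss they had values of 0.14 (edgeR adjusted p = 0.35) and 0.23 (edgeR adjusted p = 0.22). The highest *Myc* value was 0.40 for the lipoprotein receptor gene *Lrp1* (edgeR adjusted p = 0.20).

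Efflux and storage genes and the targets of the liver X receptor gave 12 tested genes of 14, and none was called. *Ch25h*, which makes an oxysterol that restrains SREBP processing, had the highest value in both cohorts. With *Cxcl12* loss this was 0.48 (standard error 0.23, edgeR adjusted p = 0.40) and with *Myc* loss 0.71 (standard error 0.19, edgeR adjusted p = 0.072). *Myc* KO kidneys had 42.8, 47.7, 64.5, 62.2 and 66.1 CPM of *Ch25h* and *Myc* controls had 23.3, 35.1, 45.3, 27.4 and 42.2 CPM, so that 4 of 5 KO kidneys lay above every control. The lowest values were -0.15 for *Cyp27a1*, another oxysterol enzyme, in the *Cxcl12* cohort (edgeR adjusted p = 0.69) and -0.28 for *Nr1h3*, the gene of a liver X receptor, in the *Myc* cohort (edgeR adjusted p = 0.29).

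The branch that turns farnesyl units into other products than sterols held 9 genes, and none was called. *Ggps1*, the geranylgeranyl diphosphate synthase, had a log2 fold change of 1.05 in the *Cxcl12* cohort (standard error 0.24, edgeR adjusted p = 0.11). It had 47.9, 46.9, 28.6, 43.5 and 31.6 CPM in KO and 14.5, 16.1 and 27.3 CPM in control kidneys. All KO kidneys lay above all controls, which was so for 2 of the 9 genes and for 4.96% of all genes tested. The pair of highest *Ggps1* values in KO kidneys came from those with under 5% unmapped reads. *Ggps1* in the other KO kidneys was 28.6 to 43.5 CPM. With *Myc* loss *Ggps1* had 0.11 (edgeR adjusted p = 0.67), and the difference of the KO effects, -0.94, did not pass the test (edgeR adjusted p = 0.15). The lowest values were -0.22 for *Pdss2* in the *Cxcl12* cohort (edgeR adjusted p = 0.46) and -0.35 for *Coq2* in the *Myc* cohort (edgeR adjusted p = 0.099), both genes of coenzyme Q synthesis. The highest *Myc* value was 0.12 for *Pggt1b* (edgeR adjusted p = 0.47), a subunit of a prenyl transferase.

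Fatty acid synthesis, which the related factor SREBP1 drives, was read for 12 genes, and again none was called. In the *Cxcl12* cohort 9 of 12 had values below 0, the median was -0.20, and 3 genes had all KO kidneys below all controls, against 4.72% of all genes tested. *Acacb*, an acetyl-CoA carboxylase, was lowest at -0.68 (edgeR adjusted p = 0.29) and *Elovl6*, a fatty acid elongase, highest at 0.34 (edgeR adjusted p = 0.39). *Acacb* ran from 12.9 to 28.1 CPM in *Cxcl12* KO and from 21.3 to 30.3 CPM in control kidneys. Its highest KO value was in *Cxcl12* KO 1, which also had the highest fat marker sum of the KO kidneys, 58.2 CPM. For *Myc* the median was 0.06, with values from -0.32 for *Scd2* (edgeR adjusted p = 0.19) to 0.58 for *Scd1* (edgeR adjusted p = 0.49), both desaturase genes. *Scd1* spread widely in *Myc* KO kidneys, from 35.25 to 404.2 CPM with a median of 134.7 CPM. In *Myc* controls it ran from 68.48 to 130.7 CPM with a median of 109.2 CPM. The highest *Scd1* value was in *Myc* KO 5, whose fat marker sum of 87.5 CPM was also the highest of its group. The part of fat tissue in the values of *Scd1* and *Acacb* was not tested.

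**Figure D4:**
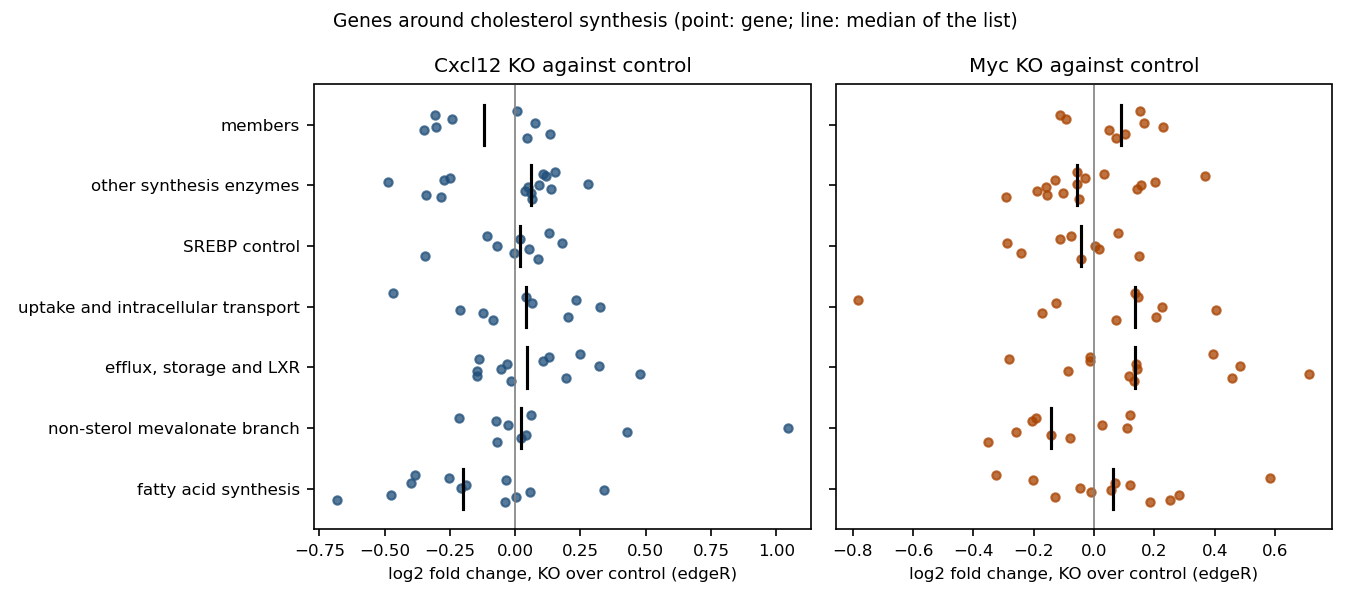
Log2 fold changes of KO over control kidneys from edgeR (x axes) for the members and 6 lists of related genes, in the *Cxcl12* cohort (left) and the *Myc* cohort (right). Each point is a gene and each line the median of a list. No gene shown was called, and *Ggps1* (1.05) lies farthest out in the *Cxcl12* cohort.

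How the members varied from kidney to kidney within a group was described by centring the log2 CPM of each gene on its group means over the 18 kidneys. These correlations are given without a test. Each kidney is 1 library, and all genes of a kidney share its depth. The members did not rise and fall as a block in these values: over the 28 pairs the median Pearson r was 0.18, with 21 above 0. The median r of members with other genes was -0.01. Pairs with *Idi1*, at 20 to 63 counts per kidney, also carry its counting noise, which can lower r. *Insig1* and *Srebf2*, the regulators, had the highest value (r = 0.72, Spearman rho = 0.74), and r was 0.62 without the 2 kidneys farthest from the median of *Insig1*, *Cxcl12* KO 4 and *Myc* control 4. *Cyp51* and *Insig1* followed at r = 0.59. *Sqle* and *Fdft1*, neighbours in the pathway, had the lowest value at r = -0.53, and *Hmgcs1* and *Insig1* had r = -0.38. *Hmgcs1* and *Srebf2* had r = -0.03. When values were centred also within the kidneys of under and of at least 5% unmapped reads, *Insig1* and *Srebf2* had r = 0.74, *Sqle* and *Fdft1* had r = -0.59, and the median over pairs was 0.07.

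Genes like the mean of the members were sought among 13728 genes with at least 1 CPM. At ranks 2 to 6 were *Hlf*, *Acot11*, *Arhgap18*, *Aqp8* and *Fads6*, with Pearson r over 18 kidneys of 0.82, 0.82, 0.79, 0.78 and 0.78. Without the 2 kidneys farthest out in the mean of the members, *Cxcl12* KO 4 and KO 2, r was 0.76, 0.77, 0.64, 0.69 and 0.615. *Dhcr7*, a late enzyme of the pathway, was at rank 17 with r = 0.72 and *Stard4* at rank 72 with r = 0.62. When values were centred also within the kidneys of under and of at least 5% unmapped reads, the top 6 genes of the 2 rankings had 0 in common.

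**Figure D5:**
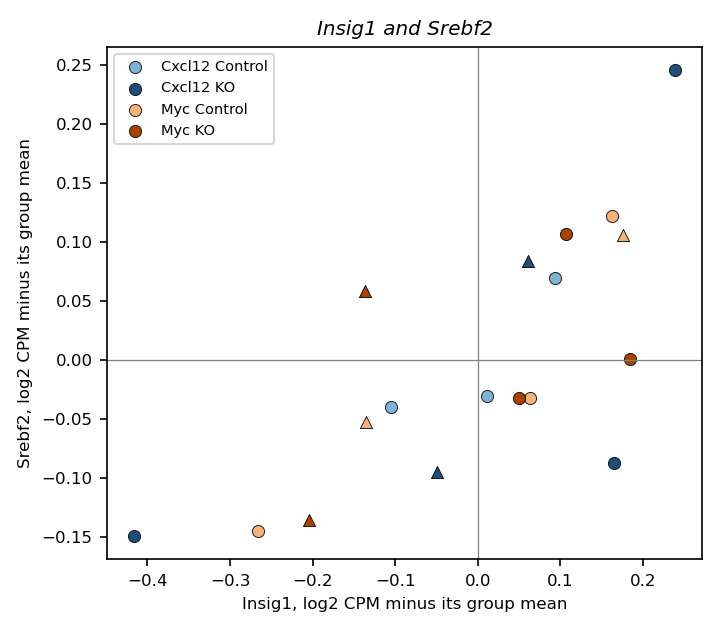
*Insig1* (x axis) and *Srebf2* (y axis) as log2 CPM minus the group mean. Each point is 1 of 18 kidneys, triangles those with under 5% unmapped reads, and *Cxcl12* KO 4 is the lowest point on both axes.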

How the data were processed

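RNA from 18 whole kidneys was sequenced. The authors trimmed reads with Trimmomatic 0.32, aligned them to GRCm38 with STAR 2.4.0, as the submitters' processing notes name, and deposited raw read counts per gene. Column 2, which ignores the strand, was used because the strand columns held nearly equal shares. Multi-mapped reads and reads in overlapping genes are not in these counts. Depth was 12918220 to 29749500 reads on genes, and members had 20 to 6767 counts per kidney, which limits *Idi1* most. Symbols were matched through GENCODE vM21 for 45143 of 45706 IDs.

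Low counts were removed per cohort by filterByExpr, library sizes were scaled by TMM, and genes were tested with edgeR 4.0.16 in R 4.3.3. The difference between cohorts was fitted over 18 kidneys. Log2 CPM for correlations used a prior count of 2. Scripts were tested on simulated data. Alternatives were other scalings, filters, count columns, DESeq2 1.42.0, limma 3.58.1, the unmapped class, replicate blocks and leaving out each kidney. In each of 33 within-group pairs of kidneys the counts differed beyond sampling noise. Tables and figures used Python 3.11.15, pandas 2.3.3 and matplotlib 3.10.9.

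Members, gene lists and tests were chosen with earlier results of these data known. Named were the members, the deleted genes, fixed pathway genes, the outermost gene of each list in each direction, and the genes most like the members. Some genes under this rule are not reported here, and they stay in the counts and medians of their lists. *Mvd*, *Ggps1* and *Ch25h* were given by kidney, and *Dhcr7* and *Stard4* by rank, after their values were seen.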

Additional observations from a re-analysis of the deposited data

Results flagged for a closer look

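Of 24 member and group combinations with 5 kidneys each, 4 held a kidney far from the other 4 by Dixon's test, and chance gives about 1 in 20. *Hmgcs1* had 287.2 CPM in *Myc* control 4, against 213.3 to 227.5 CPM in the other *Myc* controls. *Sqle* had 94.75 CPM in *Cxcl12* KO 2, against 73.89 to 75.07 CPM in the other *Cxcl12* KO kidneys. *Idi1* had 2.173 CPM in *Myc* KO 4, against 1.69 to 1.819 CPM in the other *Myc* KO kidneys. This *Idi1* value rests on 35 counts, against 23 to 45 counts in the others, so counting noise may account for the gap. *Fdft1* had 19.93 CPM in *Myc* KO 1, against 28.16 to 30.16 CPM in the other *Myc* KO kidneys. The 4 kidneys were different ones.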

How the results depend on the processing

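No member was called under any of the 75 alternatives. The count of the 21 synthesis enzymes called in the *Cxcl12* cohort went from 0 to 1 with the unmapped class and the replicate block together, and the gene is no member. The background counts moved far more. In the *Cxcl12* cohort edgeR's 0 calls became 17 with total counts, 214 without a filter, 353 with DESeq2, 25 in 1 fit over all groups, 9 with column 3, 123 with the unmapped class as covariate, 639 with class and replicate block, 80 among kidneys with at least 5% unmapped reads, and 0 to 15 leaving out each kidney. The 246 *Myc* calls became 391 with total counts, 1131 with DESeq2, 683 in 1 fit, 954 with the class, 57 with class and block, 8 and 0 within the 2 classes, and 21 to 877 leaving out each kidney, by over 1.5 times for each *Myc* kidney except KO 1 and control 1. Without *Cxcl12* KO 1, KO 2 and control 3, 15, 9 and 3 genes were called. The causes were not tested.

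The labels do not say whether equal replicate numbers pair a KO with a control kidney, and the data do not settle it. Deviations of KO and control kidneys with the same number correlated at -0.03 to 0.13 over 3 *Cxcl12* pairs and at -0.21 to 0.40 over 5 *Myc* pairs, and 4 of 6 and 1 of 10 kidneys correlated best with their own number. With the replicate block, *Myc* calls were 18 and *Hmgcs1*, *Sqle* and *Lss* had *Cxcl12* values of -0.22, -0.26 and -0.18. *Cxcl12* KO 4 and KO 5 had no control of the same number, so these *Cxcl12* values come from the other 6 kidneys. With class and block together, the *Cxcl12* values come from *Cxcl12* KO 3 and control 3 alone.

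Values near 0 changed sign. In the *Cxcl12* cohort *Cyp51* was -0.011 with total counts, -0.12 with the class, -0.25 with class and block and -0.13 at 5% or more unmapped, *Insig1* was -0.058 with column 4, and *Srebf2* was -0.050 with total counts, -0.00058 with limma and -0.0038 with column 3. With *Myc* loss *Hmgcs1* and *Fdft1* were -0.068 and -0.066 at 5% or more unmapped, *Lss* was 0.0067 with column 3, and *Cyp51* and *Insig1* were -0.24 and -0.022 under 5%. For the difference between cohorts *Cyp51* was -0.081 with the block and -0.012 with class and block, *Insig1* -0.023 with column 3 and -0.14 with class and block, and *Srebf2* -0.025 with class and block. Leaving out each kidney gave -0.022 to 0.15 for *Cyp51* and -0.061 to 0.043 for *Srebf2* with *Cxcl12* loss, and for the difference -0.11 to 0.057 for *Fdft1*, -0.076 to 0.097 for *Cyp51* and -0.0067 to 0.15 for *Insig1*. *Idi1* had too few counts in column 4 for a *Myc* value.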

Other observations

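The *Cxcl12* and *Myc* controls were both injured and both had the gene intact, and their levels were not tested against each other. *Hmgcs1* was 278 to 309 CPM in *Cxcl12* controls and 213 to 287 CPM in *Myc* controls, and *Sqle* was 90.4 to 101 CPM against 95.1 to 124 CPM. These ranges overlapped, and the cohorts cannot be told apart from anything else that differed between their litters, since each group belongs to 1 cohort.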
